A study of Homo sapiens with 54 samples.

Results

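Gene expression in SUM1315 cells treated with olaparib and 4 µM CDDP (cisplatin) together was compared with that in SUM1315 cells treated with 4 µM CDDP and no olaparib. The libraries were taken by their labels, 3 per group, so that the comparison uses 6 of the 54 samples of the series. The study asked how PARP inhibition and acquired olaparib resistance change the response of triple negative breast cancer (TNBC) cells to CDDP. It sequenced the 3′ ends of mRNA from a BRCA1 mutant line, SUM1315, and a BRCA1 wild type line, MDA-MB-468, in 18 conditions of 3 libraries each. Parental SUM1315 cells were left untreated or were treated overnight with 8 µM olaparib, with 2 or 4 µM CDDP, or with olaparib and CDDP at either dose. OlaR SUM1315 cells are their derivatives kept in 25 µM olaparib, with or without CDDP. All cells of both groups compared here therefore carry the BRCA1 mutation and received 4 µM CDDP, and they differ in olaparib. The study states that its TNBC lines, SUM1315 among them, express mutant p53. SUM1315 is an established cell line grown in culture. The labels do not say that the replicates came from separate cultures, so the p-values measure only a spread between libraries, which may be technical.

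Values are the deposited reads per gene, which the authors had adjusted to a common library size, and are called adjusted reads here. Depth, as recovered from these values, was 5420890, 6057106 and 6202364 reads in the 3 libraries with 4 µM CDDP and 5532381, 7157823 and 6145584 reads in the 3 with olaparib added. A gene counted as expressed where it had at least 10 adjusted reads in at least 3 SUM1315 libraries, which left 13133 genes. Each was tested with limma on log2 of the adjusted reads plus 1, and fold changes are on that scale, which understates the changes of genes with few reads. The fit held all 27 SUM1315 libraries of 9 conditions, OlaR cells included. Each SE and p-value therefore uses a spread pooled over these conditions and not that of the 6 libraries alone. DEGs are genes that changed by 2-fold or more with an adjusted p at or under 0.05. Pearson correlations of log2 values were 0.9719 to 0.9752 between libraries of the same group and 0.9596 to 0.9648 between libraries of different groups.

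The markers of the line were as labelled. VIM, the mesenchymal intermediate filament protein, was at 10384 to 11990 adjusted reads in the 6 libraries, against a mean of 35.3 in untreated MDA-MB-468 cells. Of 8 mesenchymal markers, 0 were DEGs by limma. At an adjusted p at or under 0.05 with no limit on the fold change, 2 were higher and 1 lower (6.32% and 6.52% of all genes). On the log2 scale these were FN1 (0.54), CD44 (0.25) and CAV1 (-0.76), of which FN1 and CAV1 are named after their values were seen. Of 12 epithelial markers, CDH1, CLDN3 and RAB25 were at 0 in all 6 libraries, CLDN4 reached 14.8 and ESRP1 8.97, and ELF3 was at 75.4 to 110, against a mean of 1653 in untreated MDA-MB-468 cells. Of the receptors that TNBC cells lack, ESR1 was at 2.97 to 6.38 and PGR at 0 to 1.02, while ERBB2 was at 25.4 to 45.3 adjusted reads. Among the 9 markers of other cell types, CD3E was at 0 in all 6 libraries and PTPRC reached 5.1. Others of the 9 were higher, with PECAM1 at 142 to 194, PDGFRB at 27.6 to 46.7 and CD68 at up to 15.7 adjusted reads. COL1A1, a fibroblast collagen gene that mesenchymal tumor lines also express, was the most abundant of them at 432 to 613, and the 9 together made up a mean of 0.0146% of the library without olaparib and 0.0127% with it (exact permutation p = 0.1, two-sided, the smallest that 3 against 3 libraries allow). Of the 4 that could be tested, 0 were DEGs by limma and 0 had an unadjusted p under 0.05 (25.6% of all genes).

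Olaparib blocks PARP1 and PARP2, enzymes that mark DNA breaks with chains of ADP-ribose and recruit repair factors. CDDP binds purine bases and forms crosslinks that DNA and RNA polymerases cannot easily pass. Cells with damaged DNA change the transcription of replication, stress, inflammatory and survival genes, and very long genes take RNA polymerase hours to transcribe.

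Adding olaparib to 4 µM CDDP raised genes that span very long stretches of the genome, the hypoxia gene CA9 and the calprotectin genes S100A8 and S100A9. It lowered E2F2, MCM7 and some other genes of DNA replication, the chemokine gene CXCL1, the receptor gene IL7R, and EDN1. Of 13133 genes, 336 (2.56%) were DEGs, 242 (1.84%) higher and 94 (0.716%) lower. The libraries of the groups did not overlap in 319 of the 336 DEGs (94.9%) and in 4422 of all genes tested (33.7%). Genes named below for rising or falling most were picked only from DEGs without overlap. For those genes the separation of the groups follows from the choice and is not further evidence. When only the 6 libraries compared were fitted, 194 genes were higher DEGs and 94 lower. With no limit on the fold change, 830 genes (6.32%) were higher and 856 (6.52%) lower, so the excess of higher over lower genes lay among the large changes. An unadjusted p under 0.05 was found in 3366 of the 13133 genes (25.6%). The median log2 fold change of all genes was 0.004. Values are relative to the library, so fewer cells of a type and less RNA per cell cannot be told apart.

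Many of the DEGs that rose were long, with 144 (61%) over 100 kb, against 18.3% of all genes tested. Spans, from the start to the end of the gene in RefSeq on GRCh38.p14, were found for 12912 of the 13133 genes, 236 of the 242 higher DEGs and 93 of the 94 lower DEGs. The median span was 191 kb in higher DEGs, 29.4 kb in all genes tested and 15.7 kb in lower DEGs. Of the 175 genes over 500 kb, 52 were higher DEGs (29.7%, against 1.84% of all genes) and 2, CACNA2D3 and PRKCE, were lower DEGs. CACNA2D3, a calcium channel subunit gene, is named after its value was seen. The median log2 fold change of the 175 genes was 0.64. Higher DEGs were 61 of 751 genes of 200 to 500 kb (8.12%), 31 of 1442 genes of 100 to 200 kb (2.15%) and 92 of 10544 genes under 100 kb (0.873%). Taken across 12912 genes, where a gene is not an independent replicate, the Pearson correlation of log10 span with the log2 fold change was 0.20 and Spearman's rho was 0.21. For olaparib added to 2 µM CDDP the same values were 0.00 and 0.03, and for olaparib without CDDP -0.08 and -0.10. Long genes had few reads, with a median of 45.7 adjusted reads over the 6 libraries in the 175 genes against 146 in all genes tested. Where genes needed 50 adjusted reads in 3 libraries, 44 of 117 genes over 500 kb were higher DEGs (37.6%) against 1.49% of all genes tested.

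**Figure D1:**
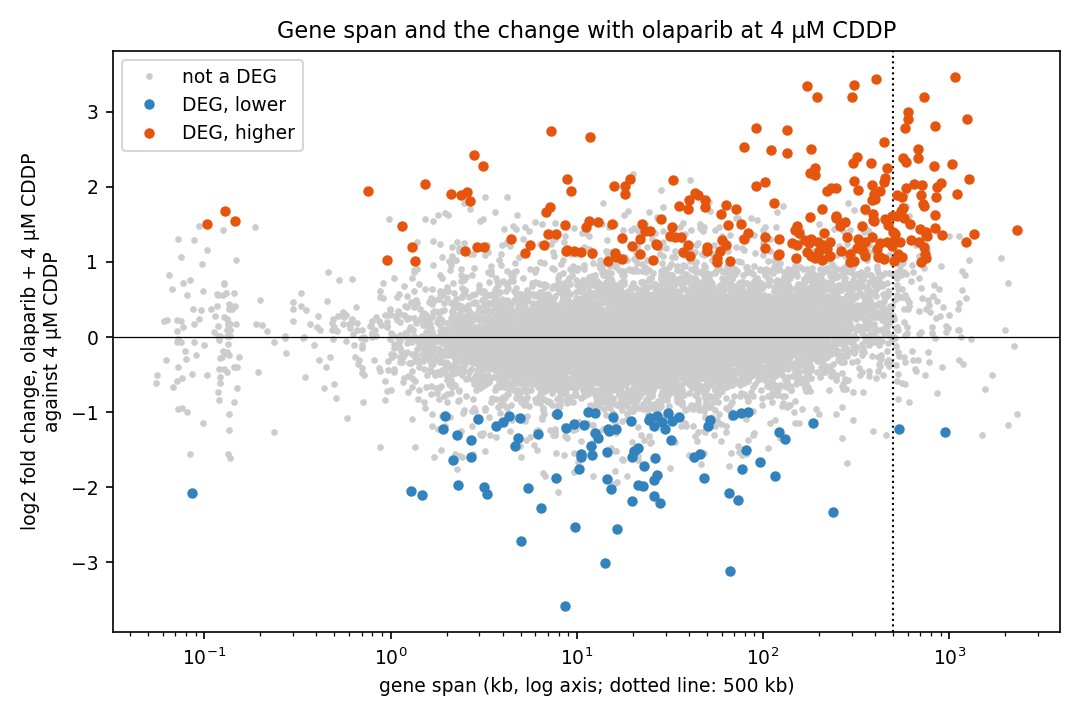
Log2 fold change with olaparib at 4 µM CDDP (vertical axis) against gene span in kb (horizontal log axis) for 12912 genes, with higher DEGs in orange, lower DEGs in blue and other genes in grey. To the right of the dotted line at 500 kb, 52 genes are orange and 2 are blue.

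TBC1D5, EXOC4 and EXOC6B, whose proteins act in membrane traffic, were long genes that rose. TBC1D5, a Rab GTPase regulator of endosomal sorting that spans 585 kb, was at 97.5, 80.3 and 85.7 adjusted reads with 4 µM CDDP and at 361, 350 and 339 with olaparib added. The groups were far apart, and the log2 fold change was 1.99 ± 0.12 (SE, n = 3 per group, limma adjusted p = 8e-14). EXOC4, a subunit of the exocyst that tethers secretory vesicles, was at 51.4, 56 and 41.2 without olaparib and at 185, 164 and 195 with it. All 3 libraries with olaparib lay above all 3 without, and EXOC4 rose by 1.86 ± 0.19 (SE, adjusted p = 2.1e-08). EXOC6B, another exocyst subunit, went from 22.6, 26.7 and 18.4 to 84.4, 96.4 and 104. The groups did not overlap, and its log2 fold change was 2.04 ± 0.21 (SE, adjusted p = 2.9e-08). TRAPPC9, of a complex that tethers vesicles at the Golgi, spans 731 kb. It was at 5.11, 0.833 and 3.55 with 4 µM CDDP, at 26.8, 44.4 and 30.5 with olaparib added, and at 129, 110 and 110 in untreated cells. Its log2 fold change with olaparib added of 3.20 ± 0.40 (SE, limma adjusted p = 1.1e-06) rests on low values.

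PTPRM, TLN2 and PARD3B also rose. PTPRM, a receptor tyrosine phosphatase at cell contacts that spans 840 kb, was at 14.4, 27.9 and 5.74 adjusted reads with 4 µM CDDP and at 93.3, 89.5 and 119 with olaparib added. Its lowest library with olaparib was well above its highest without, and the log2 fold change was 2.81 ± 0.35 (SE, adjusted p = 1.2e-06). TLN2, which links integrins to actin, was at 29.7, 13.5 and 15.7 without olaparib and at 69.5, 88.8 and 95.7 with it. The groups were separate here too, with a log2 fold change of 2.12 ± 0.25 (SE, adjusted p = 5.1e-07). PARD3B, a relative of a polarity protein, had the largest change of any gene over 500 kb, from 1.03, 0 and 2.74 to 9.9, 34.5 and 25.3. It had few reads without olaparib, so that its log2 fold change of 3.46 ± 0.51 (SE, adjusted p = 1.6e-05) rests on low values. ANKS1B rose by 2.91, TMEM117 by 2.99 and SNX29 by 2.91 on the log2 scale, each from under 20 adjusted reads. Without olaparib, TMEM117 was at 0.00416, 0 and 1.84 and SNX29 at 6.14, 4.59 and 1.64. The size of these changes therefore depends on the 1 added to each value, most of all in TMEM117.

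BCAS3, FBXL17 and TTC28 were further long genes that rose. BCAS3, which spans 715 kb, was at 19.6, 24.8 and 23 adjusted reads with 4 µM CDDP and at 99.3, 97.3 and 86.2 with olaparib added. The spread within each group was small beside this gap, and the log2 fold change was 2.03 ± 0.19 (SE, adjusted p = 5.3e-09). FBXL17, an adaptor of a ubiquitin ligase, was at 78.1, 67.4 and 89.7 without olaparib and at 297, 294 and 283 with it, a log2 fold change of 1.89 ± 0.19 (SE, adjusted p = 2e-08). Its groups did not overlap, nor did those of TTC28 (702 kb, log2 fold change 1.89). The counting of reads by strand is not given in the sources used here, so reads from genes that overlap on the other strand cannot be told apart from those of these genes.

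The levels of the long genes in the other conditions show where they moved from. In untreated cells, TBC1D5 was at 447, 457 and 413 adjusted reads, and with olaparib and no CDDP it was at 475, 509 and 473. At 2 µM CDDP it was at 251, 259 and 233 without olaparib and at 414, 418 and 400 with it. The level was therefore lowest at 4 µM CDDP, intermediate at 2 µM, and close to that of untreated cells wherever olaparib was present, with 4 µM CDDP giving the lowest of those. For BCAS3 the untreated libraries were at 186, 206 and 210 and those with 2 µM CDDP at 62.2, 82.8 and 92.7, while olaparib with 2 µM CDDP gave 177, 163 and 163. BCAS3 with olaparib and 4 µM CDDP stayed below its untreated level. Relative to untreated cells, the median log2 level of the 175 genes over 500 kb was -0.30 with olaparib, -0.76 with 2 µM CDDP, -0.44 with olaparib and 2 µM CDDP, -1.46 with 4 µM CDDP and -0.63 with olaparib and 4 µM CDDP. The levels with 4 µM CDDP and with the combination come from libraries of the main comparison.

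**Figure D2:**
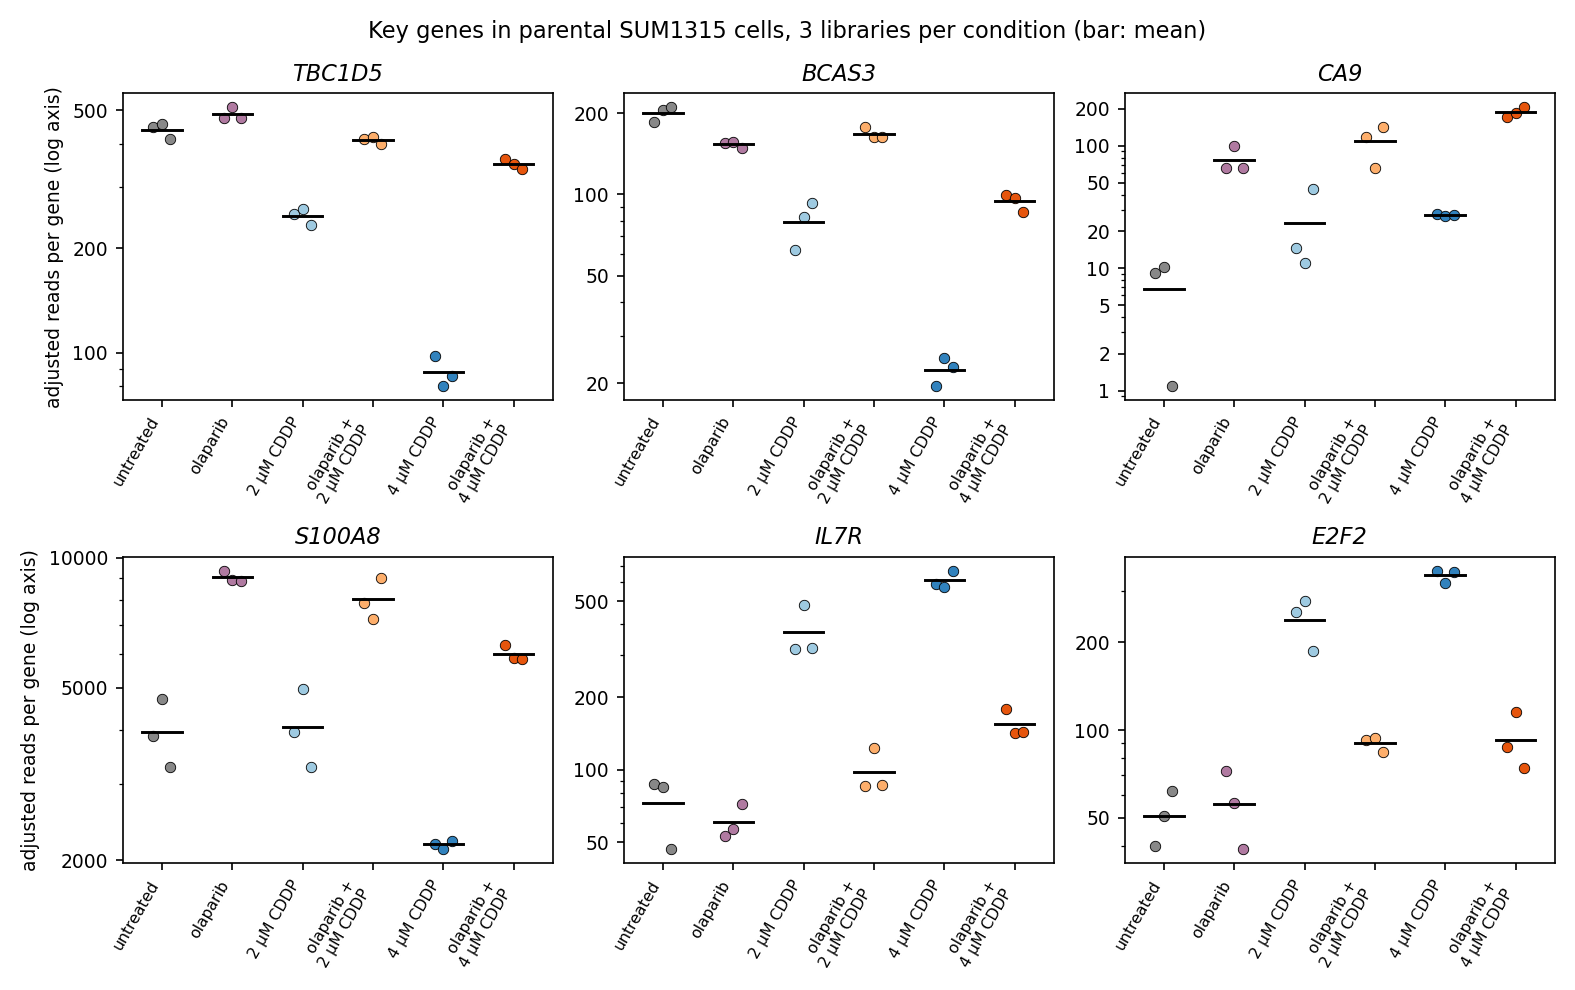
Adjusted reads (log axis) of 6 genes in the 3 libraries of each parental SUM1315 condition, with a bar at each mean. TBC1D5 and BCAS3 are lowest with 4 µM CDDP, IL7R and E2F2 are highest there, and CA9 and S100A8 are higher in each condition with olaparib than in the same condition without it.

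The share of each library in genes over 500 kb was summed over all 344 such genes of the table, of which 175 had been tested. With 4 µM CDDP it was 0.33%, 0.325% and 0.33%, and with olaparib added it was 0.415%, 0.439% and 0.424%. All libraries with olaparib were higher, and the ratio of the means was 1.30 (exact permutation p = 0.1, two-sided, the smallest possible). Mean shares in the other conditions were 0.552% in untreated cells, 0.456% with olaparib, 0.409% with 2 µM CDDP and 0.457% with olaparib and 2 µM CDDP. Genes over 200 kb gave a smaller ratio of 1.17.

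**Figure D3:**
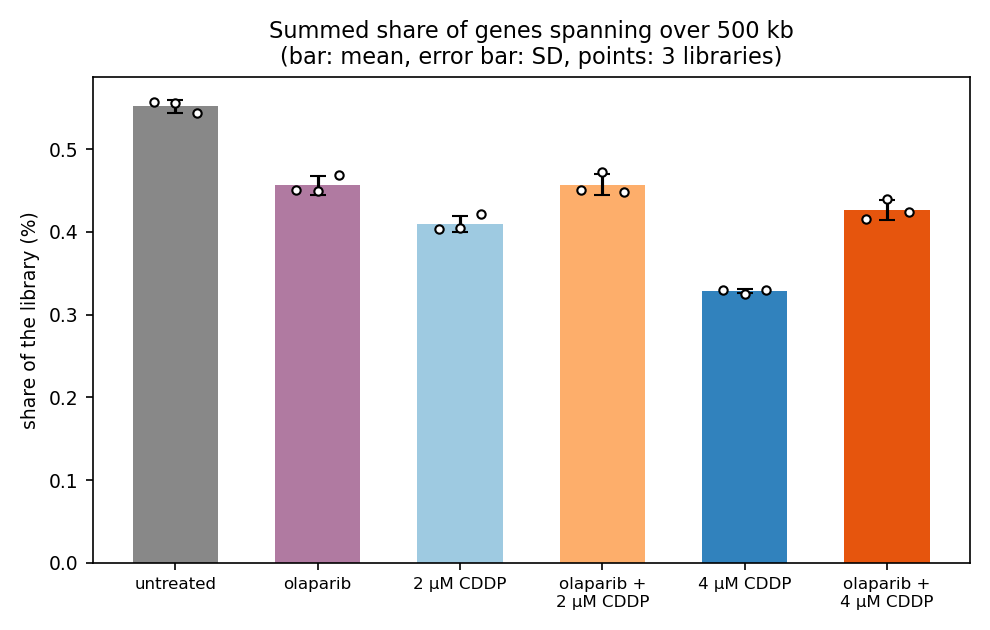
Share of each library, in percent, that falls in genes spanning over 500 kb, as the mean (bar), SD (error bar) and 3 libraries (points) of each parental SUM1315 condition. The share is lowest with 4 µM CDDP, at a mean of 0.328%, and is 0.426% with olaparib added.

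Whether olaparib acted on long genes in the same way without CDDP was tested as a difference of effects. Olaparib without CDDP made 1228 genes DEGs (9.35%), 655 higher (4.99%) and 573 lower (4.36%), and olaparib added to 2 µM CDDP made 330 (2.51%), 111 higher (0.845%) and 219 lower (1.67%). Among the 175 genes over 500 kb, olaparib alone gave 1 higher and 16 lower DEGs with a median log2 fold change of -0.30, and at 2 µM CDDP it gave 7 higher and 2 lower with a median of 0.29. Its effect at 4 µM CDDP differed from that without CDDP, at an adjusted p at or under 0.05 and with no limit on the size, in 2827 genes (21.5%), 1303 toward higher (9.92%) and 1524 toward lower (11.6%). Of the genes over 500 kb, 79 differed toward higher and 1 toward lower. The effect at 4 µM differed from that at 2 µM in 310 genes (2.36%), 208 toward higher (1.58%) and 102 toward lower (0.777%), and 14 of the genes over 500 kb differed toward higher and 0 toward lower. Of those 175 genes, 96 had an unadjusted p under 0.05 in the main limma comparison, against 25.6% of all genes. The 310 depended on single libraries. Leaving out replicates 1, 2 and 3 of 2 µM CDDP gave 95, 70 and 914 genes, and those of 4 µM CDDP gave 93, 161 and 138. Leaving out replicates 1 and 2 of olaparib with 2 µM CDDP gave 145 and 118, and replicates 1, 2 and 3 of olaparib with 4 µM CDDP gave 161, 185 and 105. On recovered reads the count was 401 with edgeR, 530 with voom and 670 with DESeq2. The 330 genes became 202 without replicate 2 of 2 µM CDDP and 184 when only the groups compared were fitted.

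CDDP at 2 µM uses no library of the main comparison. Against untreated cells it made 1155 genes DEGs (8.79%), 711 higher (5.41%) and 444 lower (3.38%). Of the 242 genes that rose with olaparib at 4 µM CDDP, 63 were lower DEGs with 2 µM CDDP, which is 26% of the former and 14.2% of the latter, and 8 were higher DEGs. Among the genes over 500 kb, 44 of 175 were lower DEGs with 2 µM CDDP and 1 was a higher DEG. CDDP at 4 µM against untreated cells, which shares its libraries with the main comparison, made 2022 genes DEGs (15.4%), 951 higher (7.24%) and 1071 lower (8.16%), with 109 of the 175 genes over 500 kb lower.

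**Figure D4:**
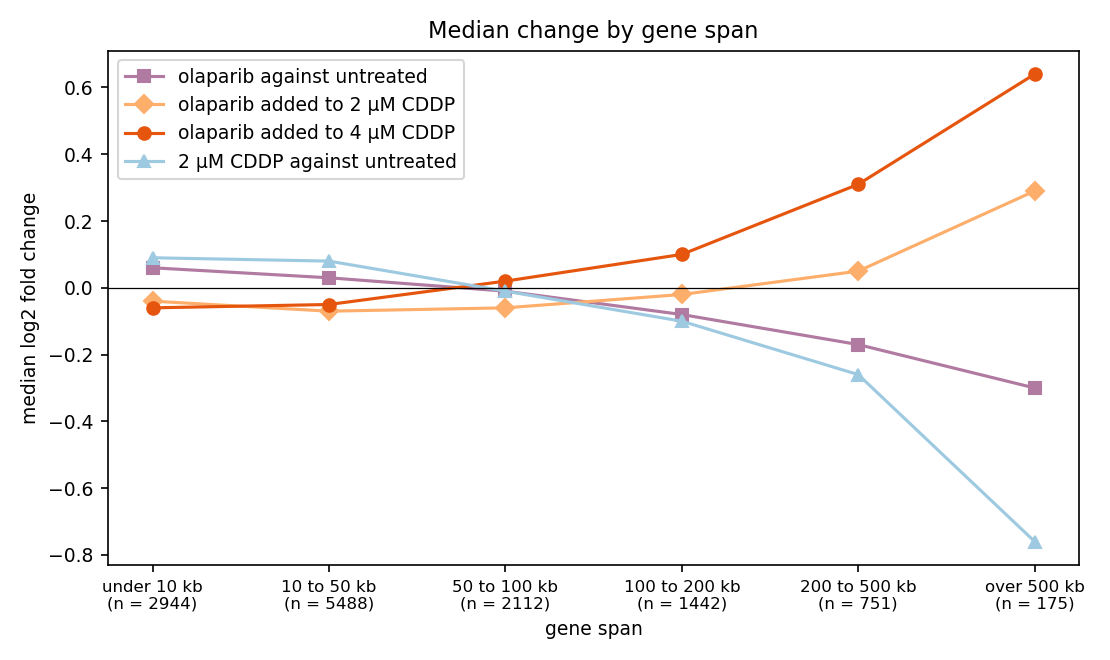
Median log2 fold change (vertical axis) of genes in 6 classes of span (horizontal axis) in the comparisons of olaparib without CDDP, with 2 µM CDDP and with 4 µM CDDP, and of 2 µM CDDP against untreated cells. In genes over 500 kb the medians are -0.30, 0.29, 0.64 and -0.76.

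The changes at 4 µM CDDP were in part those at 2 µM CDDP, in separate libraries. Of the 242 higher DEGs, 23 were also higher DEGs at 2 µM (9.5% of the 242, against 0.845% of all genes, and 20.7% of the 111). Of the same 242, 0 were lower DEGs at 2 µM, while 210 (86.8%) had a log2 fold change above 0, as did 44.7% of all genes. Of the 94 lower DEGs, 37 were lower DEGs at 2 µM (39.4% of the 94, against 1.67% of all genes, and 16.9% of the 219) and 0 were higher DEGs. Without CDDP, 30 of the 242 were higher DEGs with olaparib (12.4% of the 242, against 4.99% of all genes, and 4.58% of the 655) and 6 were lower DEGs. There 139 of the 242 (57.4%) had a log2 fold change above 0, as did 49.7% of all genes. Of the 94, 33 were lower DEGs without CDDP (35.1% of the 94, against 4.36% of all genes, and 5.76% of the 573) and 5 were higher DEGs. With each gene as a point, and not as a replicate, the Pearson correlation of the log2 fold changes at 4 µM was 0.38 with those at 2 µM and 0.18 with those without CDDP. The difference between the shares of the 242 and of the 94 was not tested.

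Some DNA replication genes fell at an adjusted p at or under 0.05, and among these all but E2F2 fell by less than 2-fold. The E2F transcription factors switch on the genes of S phase, among them the MCM helicase, ribonucleotide reductase and the DNA polymerases. Of 48 E2F target and S-phase genes tested, 47 had a log2 fold change below 0, against 6481 of all 13133 genes, and the median was -0.51. At an adjusted p at or under 0.05, 23 were lower (6.52% of all genes) and 1 was higher, and the others did not pass. The 1 that was higher, E2F7 (0.41, adjusted p = 0.04), which represses E2F targets, is named after its value was seen. E2F2 was the only DEG of the list. It was at 352, 319 and 350 adjusted reads with 4 µM CDDP and at 87.4, 115 and 74.3 with olaparib added. The groups did not overlap, and the log2 fold change was -1.90 ± 0.22 (SE, adjusted p = 2.1e-07).

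The most abundant members of the list moved less than E2F2. MCM7, a subunit of the helicase that opens replication origins, was at 1795, 1800 and 1674 adjusted reads without olaparib and at 1124, 1169 and 1042 with it. All libraries with olaparib were lower, and MCM7 fell by 0.66 on the log2 scale (SE 0.08, adjusted p = 1.1e-06). RRM2, the regulated subunit of ribonucleotide reductase, was at 1732, 1597 and 1565 without olaparib and at 1240, 1224 and 1134 with it, a log2 fold change of -0.44 ± 0.10 (SE, adjusted p = 0.0026). RRM1, the large subunit, had a log2 fold change of -0.29 (adjusted p = 0.062) and did not pass the test. The share of the library in the list went from a mean of 0.479% to 0.339%, a ratio of 0.71 (exact permutation p = 0.1). Untreated cells had a mean share of 0.178%, cells with 2 µM CDDP 0.383% and cells with olaparib and 2 µM CDDP 0.286%, so that olaparib with 4 µM CDDP left the share above that of untreated cells.

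Without CDDP, olaparib moved genes of the list in both directions. There 18 of the 48 were higher and 6 lower at an adjusted p at or under 0.05 (18.9% and 17.1% of all genes), among the latter MCM3 (-0.45), RFC3 (-0.45) and CDC6 (-0.34), named after their values were seen. The median log2 fold change was 0.27, from -0.59 to 1.43, while at 2 µM CDDP it was -0.39 and 47 of 48 genes were below 0. The difference between the effect at 4 µM CDDP and that without CDDP passed the test toward lower in 31 of the 48 genes and toward higher in 0 (11.6% and 9.92% of all genes). RRM2 was among them, with a log2 difference of -1.71 (adjusted p = 1.7e-10), since olaparib without CDDP raised it by 1.27. Between 4 and 2 µM CDDP, 0 of the 48 differed in either direction by limma. Of 52 genes of G2/M and mitosis, 0 were DEGs by limma at 4 µM CDDP and 8 had an unadjusted p under 0.05 (25.6% of all genes). With no limit on the fold change TPX2 was lower (-0.28, adjusted p = 0.035) and ARL6IP1 higher (0.34, adjusted p = 0.049), both named after their values were seen. The median of the 52 was -0.02, against 0.99 with olaparib alone. The difference between these effects passed the test toward lower in 45 of them and toward higher in 0 (11.6% and 9.92% of all genes). The mean share of the library in this list was 0.58% in untreated cells and 1.01% with olaparib. It was 0.924% with 4 µM CDDP and 0.95% with both, so the list was above its untreated share in each treated group. TOP2A, the topoisomerase of mitotic chromosomes, was at 10912, 9962 and 10407 without olaparib and at 11290, 12978 and 12833 with it, and did not pass the test (adjusted p = 0.11).

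**Figure D5:**
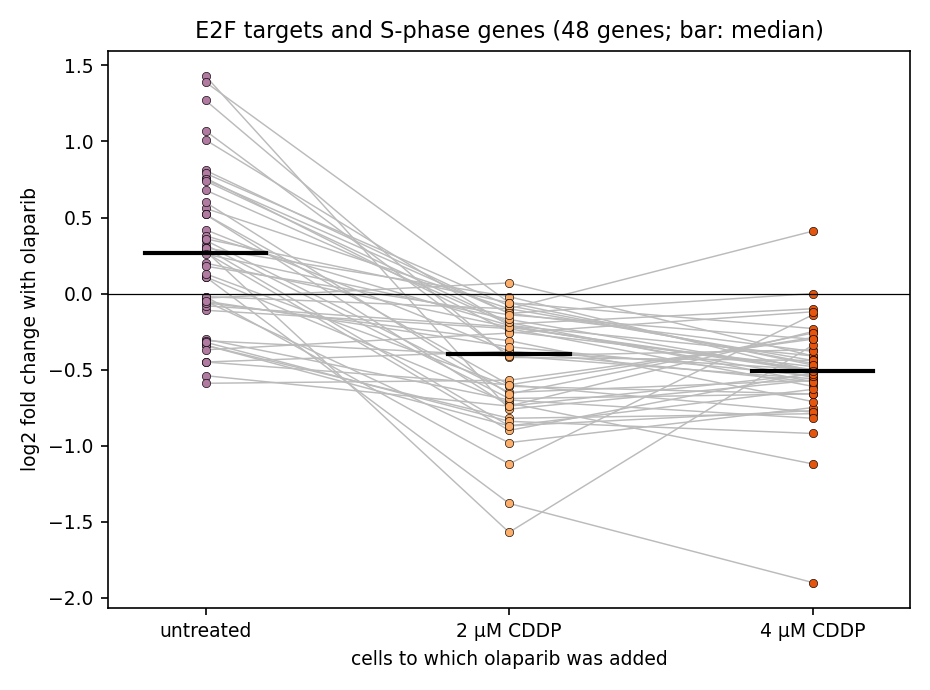
Log2 fold change with olaparib (vertical axis) of 48 E2F target and S-phase genes in untreated cells, at 2 µM CDDP and at 4 µM CDDP (horizontal axis), with a grey line for each gene and a bar at each median. The medians are 0.27, -0.39 and -0.51.

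Promoters of E2F2 and MCM7 are shown because they carry the letters that E2F proteins are known to bind and because both genes fell. The windows run from 250 bases before to 50 bases after the gene start in RefSeq on GRCh38.p14, at chr1:23531184-23531483 on the minus strand for E2F2 and chr7:100101348-100101647 on the minus strand for MCM7, 5′ to 3′. Capitals mark matches to TTTCCCGC, TTTGGCGC, TTTGCCGC or TTTCGCGC on either strand, which may overlap each other. Such a match was in 23 of the 41 promoters found for the 48 genes (56.1%) and in 908 of all 27305 promoters of the table (3.33%). A match is a description of the window and not a measured binding site. Promoters were found for 221 of the 336 DEGs (65.8%), under the 80% needed, so the check of motifs in DEGs, for AP-1 too, is void.
E2F2: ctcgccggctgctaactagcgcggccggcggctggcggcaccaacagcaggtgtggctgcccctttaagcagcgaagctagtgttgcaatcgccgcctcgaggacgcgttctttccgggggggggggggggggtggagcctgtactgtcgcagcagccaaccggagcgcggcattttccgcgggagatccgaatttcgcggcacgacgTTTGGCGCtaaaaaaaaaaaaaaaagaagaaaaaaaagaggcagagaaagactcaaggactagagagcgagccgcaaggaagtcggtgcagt
MCM7: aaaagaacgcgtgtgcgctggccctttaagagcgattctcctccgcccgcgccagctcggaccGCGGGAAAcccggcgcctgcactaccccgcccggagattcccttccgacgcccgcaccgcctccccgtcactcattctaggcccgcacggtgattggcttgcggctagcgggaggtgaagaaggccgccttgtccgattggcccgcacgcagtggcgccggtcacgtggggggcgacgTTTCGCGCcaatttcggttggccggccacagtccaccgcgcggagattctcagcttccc

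Hypoxia genes that passed the test were more often higher than lower. CA9, a hypoxia gene, encodes the enzyme carbonic anhydrase IX. It was at 27.7, 26.5 and 27.4 adjusted reads with 4 µM CDDP and at 173, 187 and 206 with olaparib added. The groups were far apart, and the log2 fold change was 2.75 ± 0.43 (SE, adjusted p = 3.7e-05). NDRG1, a stress-responsive gene that hypoxia induces, was at 391, 432 and 343 without olaparib and at 925, 984 and 929 with it. Its groups did not overlap either (1.29 ± 0.10, SE, adjusted p = 7.1e-11). EGLN3, an oxygen-sensing prolyl hydroxylase, rose by 1.24 ± 0.24 (SE, adjusted p = 0.00044). Against them, EDN1, which encodes the vasoconstrictor endothelin-1, was at 122, 79.1 and 105 without olaparib and at 12.9, 15.1 and 6.08 with it. Of 34 hypoxia genes tested, 3 were higher DEGs and 1 a lower DEG (1.84% and 0.716% of all genes), and the median was 0.16. With no limit on the fold change 9 were higher and 3 lower (6.32% and 6.52% of all genes), and 24 had a log2 fold change above 0, as did 6632 of all genes. All 4 moved in the same direction with olaparib without CDDP, CA9 by 3.62, NDRG1 by 0.69, EGLN3 by 1.03 and EDN1 by -4.45 on the log2 scale. The difference from the effect at 4 µM CDDP passed the test in NDRG1 (0.59, adjusted p = 0.0018) and not in the other 3.

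The promoter of CA9 is shown because its hypoxia element lies close to the gene start. It is at chr9:35673678-35673977 on the plus strand in RefSeq on GRCh38.p14, and capitals mark the letters ACGTG on either strand. They were in 16 of the 29 promoters found for the 34 hypoxia genes (55.2%) and in 21.6% of all promoters.
CA9: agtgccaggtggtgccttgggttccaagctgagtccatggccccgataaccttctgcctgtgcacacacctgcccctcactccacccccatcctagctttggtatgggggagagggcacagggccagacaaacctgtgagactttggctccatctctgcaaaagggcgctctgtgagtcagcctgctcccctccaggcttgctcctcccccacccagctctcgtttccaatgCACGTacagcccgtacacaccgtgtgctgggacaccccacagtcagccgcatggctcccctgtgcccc

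Some inflammatory genes fell and fewer rose. NF-κB switches on cytokine and chemokine genes and its own inhibitors. Of 39 of its targets, 1 was a lower DEG and 0 were higher DEGs by limma, 12 were lower and 1 higher with no limit on the fold change (6.52% and 6.32% of all genes), and the median was -0.31. CXCL1, a chemokine that attracts neutrophils, was at 3602, 4045 and 3582 adjusted reads with 4 µM CDDP and at 1586, 1623 and 1606 with olaparib added. Every library with olaparib was lower, with a log2 fold change of -1.22 ± 0.11 (SE, adjusted p = 2.4e-09). CXCL8, with the same role, fell by 0.65 (adjusted p = 0.0025), and PTGS2, the inducible prostaglandin synthase, by 0.45 (adjusted p = 0.00068). The 1 that was higher was NFKBIA, the inhibitor of NF-κB (0.32, adjusted p = 0.022), named after its value was seen. Of chemokines and cytokines in other lists, CXCL10 (0.91, adjusted p = 7.3e-05), CXCL11 (0.53, adjusted p = 0.00038) and CSF1 (0.43, adjusted p = 0.039) rose, and they too are named after their values were seen.

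IL7R, IL33 and INHBA also fell. IL7R, the receptor chain of interleukin 7, was at 586, 574 and 667 adjusted reads without olaparib and at 179, 142 and 143 with it. The groups did not overlap, and its log2 fold change was -1.98 ± 0.25 (SE, adjusted p = 1.2e-06). IL33, an alarmin cytokine, was at 516, 527 and 554 without olaparib and at 182, 197 and 153 with it (-1.59 ± 0.23, SE, adjusted p = 1.1e-05). INHBA, which encodes a subunit of activin A, was at 790, 691 and 690 without olaparib and at 217, 278 and 269 with it (-1.51 ± 0.12, SE, adjusted p = 1.7e-10). In each of these genes, every library with olaparib was below every library without. Untreated cells had 87.6, 84.7 and 46.8 for IL7R, and olaparib without CDDP changed it by -0.22 (adjusted p = 0.52), so that the difference from the effect at 4 µM CDDP passed the test (-1.76, adjusted p = 0.00042). IL33 changed by -0.32 without CDDP (difference -1.27, limma adjusted p = 0.0044). INHBA went the other way, with a larger fall without CDDP of -2.23 (difference 0.72, limma adjusted p = 0.0025). TNFSF15, a cytokine of the TNF family, fell by 1.97, SH2D2A, an adaptor of lymphocyte signaling, by 1.59 and INHBE, another activin subunit gene, by 1.60 on the log2 scale. TNFSF15 no longer passed with any library left out other than replicate 1 of olaparib with 4 µM CDDP, nor with no filter on low values.

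Genes of epidermal differentiation moved in both directions. S100A8 and S100A9 encode the subunits of calprotectin, a calcium-binding protein released in inflammation. S100A8 was at 2183, 2119 and 2219 adjusted reads with 4 µM CDDP and at 6276, 5852 and 5822 with olaparib added. S100A9 was at 4121, 4194 and 3858 without olaparib and at 10609, 8673 and 8808 with it. Neither gene's groups overlapped, and the log2 fold changes were 1.46 ± 0.11 and 1.20 ± 0.12 (SE, adjusted p = 7.4e-11 and 2.1e-08). KRT80, a keratin, was at 264, 280 and 285 without olaparib and at 83.4, 83.9 and 83.7 with it. Its libraries within a group were nearly equal, and it fell by 1.71 on the log2 scale (adjusted p = 2.9e-08). Of 29 genes of the list, 3 were higher DEGs (S100A8, S100A9 and S100A7) and 2 lower (S100P and KRT80), against 1.84% and 0.716% of all genes, with a median of -0.34. With no limit on the fold change 5 were higher and 8 lower (6.32% and 6.52% of all genes). KRT75, a keratin outside the list, fell by 1.75 (adjusted p = 4.2e-10). Keratins and S100 genes have close relatives whose reads the counting may share.

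Stress response lists held few DEGs, where 1.84% of all genes were higher and 0.716% lower DEGs. Of all genes, 25.6% had an unadjusted p under 0.05, and 6.32% were higher and 6.52% lower with no limit on the fold change, for comparison with the counts that follow. The ATF4 pathway, which cells use when amino acids or protein folding fail, had 0 DEGs by limma among 31 genes, 18 of them with an unadjusted p under 0.05, and 11 lower and 1 higher with no limit on the fold change, at a median of -0.40. GDF15, a stress cytokine of that list, was at 4991, 5109 and 5062 adjusted reads without olaparib and at 2902, 3156 and 3435 with it. It fell by 0.68 on the log2 scale (SE 0.09, adjusted p = 5.3e-06) with no overlap, and olaparib without CDDP had lowered it by more (difference 1.79, adjusted p = 1.3e-11). Of 24 genes of MAPK feedback, which restrain the ERK kinases, 1 was a lower DEG, DUSP2 (-1.31, adjusted p = 0.0035), and 7 were lower with no limit on the fold change. DUSP6, the ERK phosphatase, fell by 0.38 (adjusted p = 0.0055), and the effect of olaparib was larger without CDDP (difference 0.73, adjusted p = 0.00012). Among 31 heat shock genes, HSPA1B was the only DEG (1.14 ± 0.20, SE, adjusted p = 0.00015), with 12 at an unadjusted p under 0.05, 4 higher and 6 lower with no limit on the fold change and a median of -0.10, and how reads were divided between it and its near-identical copy HSPA1A is uncertain. Among 32 NRF2 and glutathione genes, 0 were DEGs by limma, 16 had an unadjusted p under 0.05, and 7 were higher and 3 lower with no limit on the fold change. MT2A, a metallothionein that binds metals, was at 18408, 17948 and 17519 without olaparib and at 26484, 26246 and 24566 with it. All 3 libraries with olaparib were higher, at a log2 fold change of 0.52 ± 0.08 (SE, adjusted p = 2.3e-05).

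DNA repair, p53, death and interferon lists held 0 DEGs by limma. Beside the counts below stand the same shares of all genes, 25.6% at an unadjusted p under 0.05 and, with no limit on the fold change, 6.32% higher and 6.52% lower. Of 46 homologous recombination and Fanconi anemia genes, 10 had an unadjusted p under 0.05 and 5 were lower with no limit on the fold change, at a median of -0.14. Of 40 genes of the PARP family and base excision repair, 9 had an unadjusted p under 0.05, and 3 were lower and 1 higher. PARP1, the main target of olaparib, was at 1888, 1766 and 1804 adjusted reads without olaparib and at 1534, 1506 and 1488 with it. It was lower in all 3 libraries, with a log2 fold change of -0.27 ± 0.09 (SE, adjusted p = 0.038), and it no longer passed with any of the 6 libraries left out or with no filter on low values. Of 32 nucleotide excision repair and translesion synthesis genes, 5 had an unadjusted p under 0.05, and 2 were lower and 1 higher. Of 32 p53 targets, in a line that the study describes as p53 mutant, 9 had an unadjusted p under 0.05, and 3 were higher and 1 lower. CDKN1A, the cell cycle inhibitor p21, was at 1500, 1368 and 1504 without olaparib and at 1392, 1344 and 1429 with it, and its groups overlapped (adjusted p = 0.67). Of 35 genes of the BCL2 family and death receptors, 9 had an unadjusted p under 0.05, and 2 were higher and 1 lower. Of 42 interferon-stimulated genes, 6 had an unadjusted p under 0.05, and 4 were lower and 2 higher.

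Further lists held few DEGs, beside 1.84% higher and 0.716% lower in all genes. Of 28 AP-1 and immediate early genes, 0 were DEGs by limma, 10 had an unadjusted p under 0.05 (25.6% of all genes), and the median was -0.21. Of 45 TGF-β and mesenchymal genes, INHBA was the only DEG, with a median of -0.04. Of 37 genes of cholesterol and lipid synthesis and of LXR, the sterol receptor, IL33 and CD14 (-1.05) were lower DEGs, with a median of 0.03. CD14 no longer passed without replicate 3 of 4 µM CDDP or without replicate 1 or 2 of olaparib with 4 µM CDDP. Of 26 clustered histone genes, HIST1H2BI was the only DEG (-2.16, adjusted p = 0.047), and poly(A) priming captures most of these mRNAs poorly. Nothing particular to a list is called from these counts.

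Among abundant DEGs were the noncoding RNAs MALAT1 and CCAT1 and, apart from them, the gene SEL1L3. MALAT1, a nuclear long noncoding RNA, was at 1533, 1385 and 1216 adjusted reads with 4 µM CDDP and at 2778, 3416 and 2954 with olaparib added. CCAT1, a noncoding RNA found in colon tumors, was at 1442, 1389 and 1411 without olaparib and at 470, 581 and 503 with it. Neither overlapped between groups, and the log2 fold changes were 1.15 ± 0.13 and -1.45 ± 0.12 (SE, adjusted p = 1.7e-07 and 1.3e-10). SEL1L3 was at 553, 505 and 498 without olaparib and at 1139, 970 and 1111 with it (1.05 ± 0.14, SE, adjusted p = 3.5e-06). Untreated cells had 4943, 5468 and 3636 for MALAT1, above both groups.

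On whole reads recovered from the deposited values, edgeR called 311 DEGs, 286 of them the same genes in the same direction, and in it 52 of the 175 genes over 500 kb were higher DEGs, and whether they are the same 52 was not compared.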

How the data were processed

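The series holds QuantSeq 3′ mRNA libraries of 2 TNBC lines, and 27 SUM1315 libraries of 9 conditions were used. Per the labels, the authors called bases with CASAVA 1.8.2, checked reads with FastQC, aligned them to hg38 with STAR and counted them with HTSeq. The values used are signal that the authors had adjusted to a common library size with edgeR before the table was deposited. They are not whole reads. Inverting the adjustment with a dispersion of 0.0104 gave values within 0.1 of a whole read for at least 99.02% of values in each of the 6 libraries (76.01% in the lowest of 54). In replicate 1 of 4 µM CDDP, 17356 values are above 0 and 15390 genes have a read or more, and the values near 0 that make up the rest count as whole. The inversion was tested on simulated data. The labels give doses in mM in one place and in µM in another, and µM is used here. The table has 27470 genes, of which 4082 are 0 throughout, 27 have names turned into dates and 2 names are repeated. The authors' 2 files of fold changes, p-values and FDR were not used.

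Log2 of the value plus 1 was fitted with limma 3.58.1 (trend, R 4.3.3) over 9 conditions, keeping the 13133 genes that reached 10 in 3 or more libraries, with p-values adjusted by the method of Benjamini and Hochberg. Differences of effects had no fold limit. Recovered reads were also tested with edgeR 4.0.16 (311 DEGs), DESeq2 1.42.0 and voom. Other steps used Python 3.11.15, numpy 2.4.6, pandas 2.3.3, scipy 1.17.1 and matplotlib 3.10.9. Spans and promoters came from RefSeq on GRCh38.p14. Adjusted totals were 5140429 to 6161061 in the 54 libraries.

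Genes named are, among DEGs whose groups do not overlap with a mean of at least 50, the 10 that rose most and the 10 that fell most. Added to them are the 6 most abundant DEGs, up to 4 DEGs of each list and up to 3 abundant members where few are DEGs, the 5 smallest p in each difference of effects at a mean of at least 50, and up to 6 DEGs over 500 kb. A gene that this rule names is withheld and not reported here. Members and lists were chosen with earlier results of these data known.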

Additional observations from a re-analysis of the deposited data

Results flagged for a closer look

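The effect of olaparib at 4 µM CDDP was tested against its effect without CDDP and at 2 µM CDDP, and the differences below passed the test. Against the effect without CDDP, 2827 genes differed. TIMP3, an inhibitor of matrix proteases, had a log2 difference of 2.32, since olaparib alone changed it by -2.08 and olaparib at 4 µM CDDP by 0.24. MT1E, a metallothionein, differed by -3.28 (3.54 alone and 0.26 at 4 µM), and its reads may be shared with close relatives. NEAT1, a nuclear noncoding RNA, differed by 1.85 (-1.11 alone and 0.74 at 4 µM). TUBA1B, an alpha tubulin with near-identical copies, differed by -1.78 (1.63 alone and -0.15 at 4 µM). RCAN1, an inhibitor of calcineurin, differed by 1.87 (-2.68 alone and -0.81 at 4 µM).

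Against the effect at 2 µM CDDP, 310 genes differed. TBC1D5 differed by 1.26 on the log2 scale (0.73 at 2 µM and 1.99 at 4 µM) and TIMP3 by 0.80. CLDN1, a tight junction protein, differed by 0.93 (-1.43 at 2 µM and -0.50 at 4 µM). GALNT18, an enzyme that starts O-glycans, differed by 1.59 (-0.32 at 2 µM and 1.27 at 4 µM). FTL, the ferritin light chain, whose pseudogenes may take reads, differed by -0.75 (0.90 at 2 µM and 0.15 at 4 µM). The cause of these differences was not tested.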

How the results depend on the processing

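Higher DEGs with olaparib at 4 µM CDDP numbered 242, and 187 to 232 with a library left out. Lower DEGs numbered 94, and 64 to 93. Under edgeR they were 219 and 92, under DESeq2 248 and 117, under voom 226 and 122, and after recentring 237 and 94. With only the groups compared in the fit they were 194 and 94. With no fold limit the counts were 830 and 856, at a log2 fold change of at least 2 they were 53 and 20, and with a filter of 50 they were 154 and 61, each by construction.

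With a library left out, olaparib alone gave 900 to 1389 DEGs, olaparib at 2 µM CDDP 202 to 485, 2 µM CDDP 819 to 1320, the difference of 4 from 0 µM 2295 to 2942 genes, that of 4 from 2 µM 70 to 914, and the ratio of shares 1.28 to 1.31. With no fold limit olaparib alone gave 4732, olaparib at 2 µM CDDP 2013 and 2 µM CDDP 4458. At a log2 fold change of at least 2 they gave 181, 46 and 173. A log2 difference of at least 1 left 1060 and 82 genes. With no filter olaparib alone gave 2116, 2 µM CDDP 1969 and the difference of 4 from 2 µM 133. That difference was 401 under edgeR, 530 under voom and 670 under DESeq2. Fitting only the groups compared gave 184 DEGs for olaparib at 2 µM CDDP, and a span limit of 200 kb gave a ratio of 1.17. The cause was not tested.

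With the replicate number as a block (replicate block), 245 genes were higher and 93 lower. Libraries of the same number had correlations of residual values of 0.00, 0.01 and 0.04. Of the 102 genes that the naming rule gave, none reversed, but calls weakened past the threshold in 30 cases with a library left out, in 5 with no filter (TNFSF15, HSP90B1, TGFBI, PARP1 and CD44) and in 1 with the block (HSP90B1). Those with a library left out were of these 5 genes and CD14. Genes named after their values were seen, and S100A7, HIST1H2BI and PRKCE, were not run under other settings. Depth of 5420890 to 7157823 reads limits genes with few reads, and 1 cell line and 3 libraries per group limit the rest.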

Other observations

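OlaR SUM1315 cells enter no comparison of the report, though their libraries are in the fit that gave the spread. In them, genes over 500 kb made up a mean of 0.407% of the library with no CDDP, 0.331% with 2 µM CDDP and 0.272% with 4 µM CDDP. In parental cells without olaparib the same shares were 0.552%, 0.409% and 0.328%.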
